A study of Mus musculus with 2 samples.

Results

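The macrophage identity factors and CSF receptors are 9 genes of the 20330 identifiers in the expression table. They were taken by gene symbol from a list of genes that define or sustain macrophages, a rule that uses no measured value, though the list was drawn up with earlier results of these data known. They are the transcription factor genes Spi1, Cebpa, Cebpb, Maf and Irf8, the receptor genes Csf1r, Csf2ra and Csf2rb, and Adgre1, which encodes the surface protein F4/80. All 9 were found in the table, and all 9 passed the filter on low values.

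RNA-seq was performed on adipose tissue macrophages (ATMs) sorted from visceral fat of C57BL/6 mice after 12 weeks on a high-fat diet. The WT library came from hMRP8cre-;Hif-1αfl/fl;ApoE-/- mice and the KO library from hMRP8cre+;Hif-1αfl/fl;ApoE-/- mice. Both genotypes therefore lacked ApoE and carried floxed Hif-1α alleles, and only KO carried the Cre. The human MRP8 promoter that drives this Cre is active in neutrophils, monocytes and their precursors, so deletion was not limited to ATMs. There was 1 library per genotype, and the sources used here do not say how many mice went into it. No replicate error, test or p-value exists for any difference below, and the values describe these 2 libraries rather than the genotypes. In such bulk RNA, fewer cells of a type and less RNA per cell cannot be told apart.

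PU.1, the product of Spi1, is the ETS-family factor on which the macrophage lineage depends, and it opens macrophage enhancers together with C/EBPα and C/EBPβ. IRF8 binds many of these sites as a partner of PU.1, while MAF is known for restraining proliferation and keeping macrophages differentiated. Macrophages survive on signals from CSF1R, the receptor for M-CSF and IL-34. GM-CSF is read by a receptor made of the ligand-binding chain CSF2RA and the signalling chain CSF2RB, which also serves IL-3 and IL-5. F4/80 is an adhesion G protein-coupled receptor and a standard mouse macrophage marker.

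All 9 genes were well expressed in both libraries. Their FPKM (fragments per kilobase of transcript at equal library size, a level that allows for transcript length) ranged from 21.9 to 719. Each was at 20 FPKM or more in both libraries, a level that 2470 genes, or 12.1% of all identifiers, reached. The median gene above 0 was at 10.1 FPKM in WT against 9.64 FPKM in KO. The median of the 9 genes was 115 FPKM in WT against 166 FPKM in KO. These medians are the values of different genes, Maf in WT and Cebpb in KO, so they do not show a rise of the set. Summed over the 9 genes, the level was 1977 FPKM in WT against 1958 FPKM in KO. The levels are 1 library each, so no neighbours in their order can be said to differ beyond a replicate spread.

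The order of levels was nearly shared by the libraries. Csf1r stood first in both, with rank 156 of 9773 genes above 0 in WT and rank 122 of 10124 in KO. Csf2ra, Spi1 and Adgre1 followed in this order in both libraries, all between ranks 240 and 337. Maf and Cebpb came next, Maf first in WT and Cebpb first in KO. Cebpa, Csf2rb and Irf8 closed the order in both, with Irf8 at rank 2473 in WT and rank 2941 in KO.

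**Figure D1:**
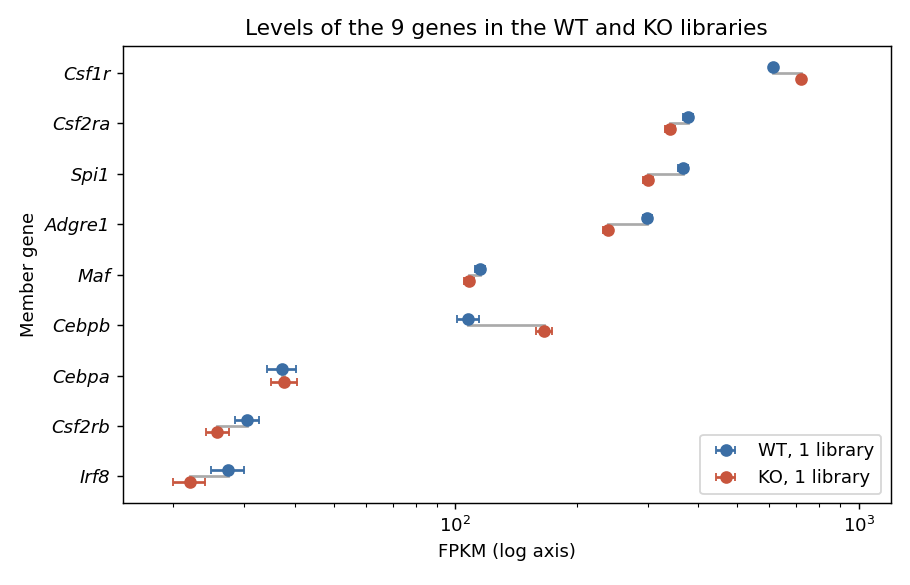
FPKM of the 9 genes on a log axis, in the WT library (blue) and the KO library (red), with bars for the counting interval of each value and a grey line joining the libraries. Csf1r was the highest in both libraries, at 615 and 719 FPKM, and Cebpb had the widest gap, from 108 to 166 FPKM.

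No gene of the 9 differed by 3-fold or more between WT and KO, the fold the study used. Differences were computed as log2(FPKM + 1), KO minus WT, which understates the change of low genes. Among all 10297 genes compared, 27.3% passed 3-fold. Of all genes compared, 13.6% were at least 3-fold higher and 13.7% at least 3-fold lower in KO. This share falls steeply with expression, so the genes of a similar level are the closer comparison. With a mean of 100 FPKM or more, as 6 of the 9 genes have, only 2.14% of 748 genes passed 3-fold. With a mean of 10 to 100 FPKM, as for Cebpa, Irf8 and Csf2rb, it was 14.6% of 4239 genes. A count of 0 among 9 genes is thus near what most genes of these levels showed. At 2-fold, 0 of the 9 passed, beside 7.75% of the genes at 100 FPKM or more and 30.4% of those at 10 to 100 FPKM. With Csf2rb summed with its near copy Csf2rb2, 1 of the 9 passed 2-fold, since the Csf2rb fold went from 1.19 to 2.15. At 1.5-fold, Cebpb alone of the 9 passed, beside 21.5% and 51.5%.

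Of the 9 genes, 3 were higher in KO (Cebpa, Cebpb and Csf1r) and 6 were lower. Their median difference was -0.15 on the log2(FPKM + 1) scale, with a range from -0.32 to 0.62, against a median of 0.03 over all genes compared. The middle 50% of genes at 100 FPKM or more lay between -0.30 and 0.28, and that of genes at 10 to 100 FPKM between -0.59 and 0.62. Adgre1 and Cebpb lay outside these ranges, and 7 of the 9 lay inside. Csf2rb was inside on its own but outside, at -1.08, when summed with Csf2rb2. Counting intervals, built from the estimated fragments behind each value, lay above 0 for 2 genes (Cebpb and Csf1r) and below 0 for 6. These intervals cover counting error only, since amplified fragments without molecular identifiers are not independent molecules and mice, sorting and library preparation add more.

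**Figure D2:**
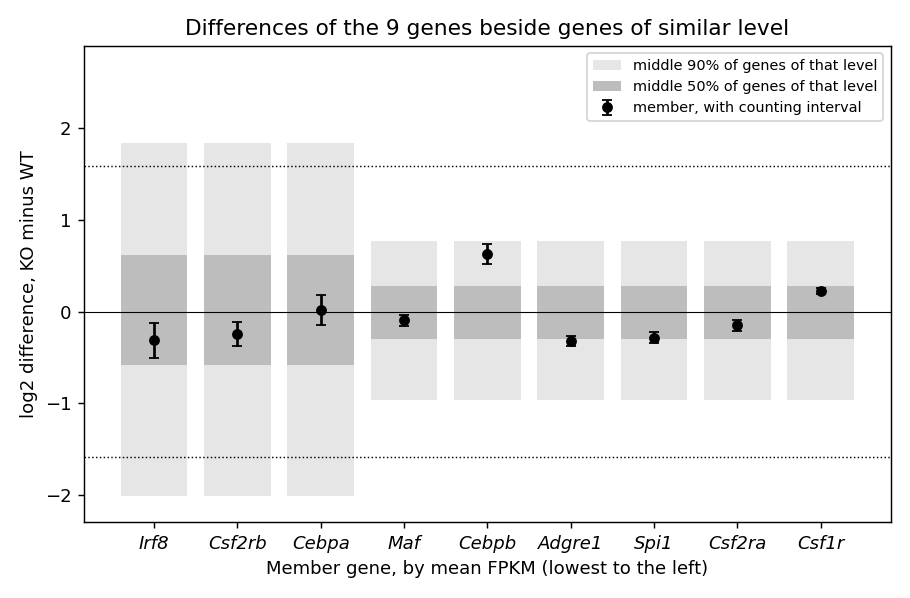
Plain log2 ratio of FPKM (KO to WT) of the 9 genes, ordered by mean FPKM, with 95% counting intervals. Grey bands show the middle 50% and 90% of differences in log2(FPKM + 1) over all genes of the same FPKM class. Dotted lines mark 3-fold. Cebpb, at 0.63, and Adgre1, at -0.32, lie outside the dark band, and none of the 9 reaches a dotted line.

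Among the transcription factors, Spi1 (ENSMUSG00000002111, GRCm38 chromosome 2, 91082390 to 91115756, plus strand, 5 exons) was the most abundant. It was at 367 FPKM in WT against 300.9 FPKM in KO. The KO value was the lower by 1.22-fold, a difference of -0.29 with a counting interval of the log2 ratio from -0.35 to -0.23. Behind these values lay about 4385 fragments for WT and 4569 for KO. In both libraries Spi1 stood above 97% of the genes above 0, at percentiles 97.5 and 97.2.

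Irf8 (ENSMUSG00000041515, chromosome 8, 120736358 to 120756694, plus strand, 9 exons), the partner factor of PU.1, was the lowest of the 9. It was at 27.3 FPKM in WT against 21.9 FPKM in KO, lower in KO by 1.24-fold, with a difference of -0.30 and an interval from -0.51 to -0.13. Spi1 and Irf8 differed in the same direction and by nearly the same amount. Spi1 was therefore 13.4 times Irf8 in WT and 13.7 times Irf8 in KO. A gene model on the same strand, Gm20388, overlaps Irf8, and reads of the pair could be split between them.

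Maf (ENSMUSG00000055435, chromosome 8, 115682942 to 115707794, minus strand, 1 exon in the transcript used) was at 115 FPKM in WT against 108 FPKM in KO. This difference, -0.09 with an interval from -0.15 to -0.03, was among the smallest of the 9. MAF is a large basic leucine zipper factor, and an estimated 4302 fragments for WT and 5129 for KO lay behind its values. An antisense gene, Gm15655, overlaps it.

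Cebpa and Cebpb, which encode the C/EBP proteins of the lineage, gave the smallest and the widest difference of the 9. The widest holds with Csf2rb taken without Csf2rb2. Cebpa (ENSMUSG00000034957, chromosome 7, 35119293 to 35121928, plus strand, 1 exon) was at 37.2 FPKM in WT against 37.6 FPKM in KO, a difference of 0.02 with an interval from -0.14 to 0.18. Cebpb (ENSMUSG00000056501, chromosome 2, 167688915 to 167690418, plus strand, 1 exon) was at 108 FPKM in WT against 166 FPKM in KO. C/EBPβ is the family member known for its induction by inflammatory and cytokine signals. Its transcript was 1.54-fold higher in KO, a difference of 0.62 with an interval from 0.51 to 0.74, on an estimated 949 and 1865 fragments. Of the genes at 100 FPKM or more, 19.3% differed by at least as much. Within a library, Cebpa was at 0.346 times Cebpb in WT and at 0.226 times in KO.

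The sequences upstream of these C/EBP genes are shown because the genes sit in 1 family and differed unequally between the libraries. They are the 250 bases before the start in RefSeq (GRCm38.p6), for Cebpa at chr7:35119043-35119292 and for Cebpb at chr2:167688665-167688914, both on the plus strand. Capitals mark a match to a searched motif, found in Cebpb only.
Cebpa: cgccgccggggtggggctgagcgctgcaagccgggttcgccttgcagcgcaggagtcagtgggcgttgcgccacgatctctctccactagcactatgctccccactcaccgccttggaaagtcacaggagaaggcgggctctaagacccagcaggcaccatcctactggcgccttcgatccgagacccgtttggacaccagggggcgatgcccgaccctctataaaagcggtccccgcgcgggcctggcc
Cebpb: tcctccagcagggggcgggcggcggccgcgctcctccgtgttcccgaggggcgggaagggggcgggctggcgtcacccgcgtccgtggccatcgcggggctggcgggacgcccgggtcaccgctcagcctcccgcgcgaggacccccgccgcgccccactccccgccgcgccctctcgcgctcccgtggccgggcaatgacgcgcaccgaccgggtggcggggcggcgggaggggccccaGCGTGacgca

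The letters searched on both strands were GAGGAAG for PU.1, TTGCNNAA for C/EBP, the tandem GAAA motif for IRF, and ACGTG and GCGTG for the core of the hypoxia response element that HIF-1 binds. The Cebpb stretch held GCGTG once, 10 bases before the start, and the Cebpa stretch held none of these letters. Over 32851 promoters of the same length, GCGTG was present in 28.2% and either HIF core in 38.6%, so such a match is common. C/EBP letters were present in 9.56% and IRF letters in 2.98% of all promoters. Both stretches were rich in G and C, at 66.4% for Cebpa and 81.6% for Cebpb, against a median of 52.4% over all promoters.

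The study measured the same C/EBP genes by qRT-PCR, and its primers are printed because they show which part of each transcript that assay reads. Each primer was found once in the coding sequence of its gene. The Cebpa pair spans coding bases 893 to 1043 of 1077, a product of 151 bases. The Cebpb pair spans coding bases 655 to 816 of 888, a product of 162 bases. Both products lie towards the end of the coding sequence, whereas FPKM averages over the whole transcript. Genes on the opposite strand overlap both, Gm45091 at Cebpa and Tmem189 at Cebpb, and the sources used here do not say whether counting used strand.
Cebpa forward: gcaagagccgagataaagc
Cebpa reverse: tcaggcagctggcggaag
Cebpb forward: gacaagctgagcgacgagtaca
Cebpb reverse: cgacagctgctccaccttcttc

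Summed over the 5 transcription factors, the level was 655 FPKM in WT against 634 FPKM in KO. Their median difference was -0.09, with 2 higher and 3 lower in KO. Spi1, the lower in KO, and Cebpb, the higher in KO, lay in opposite directions within this sum.

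Csf1r (ENSMUSG00000024621, chromosome 18, 61100598 to 61132149, plus strand, 21 exons) was the most abundant of the receptors. It was at 615 FPKM in WT against 719 FPKM in KO. The KO value was 1.17-fold higher, a difference of 0.22 with an interval from 0.20 to 0.25, on an estimated 16975 and 25225 fragments, the most of the 9 genes. This lay within the middle 50% of genes of this level, which ran from -0.30 to 0.28. Hmgxb3 overlaps Csf1r on the opposite strand.

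Csf2ra (ENSMUSG00000059326, chromosome 19, 61223957 to 61228429, minus strand, 12 exons) encodes the chain that binds GM-CSF. It was at 378 FPKM in WT against 340.2 FPKM in KO, lower in KO by 1.11-fold, with a difference of -0.15 and an interval from -0.21 to -0.09. Csf2rb (ENSMUSG00000071713, chromosome 15, 78325752 to 78353847, plus strand, 15 exons) encodes the common signalling chain. It was at 30.5 FPKM in WT against 25.7 FPKM in KO, lower in KO by 1.19-fold, with a difference of -0.24 and an interval from -0.38 to -0.11. Both values were thus lower in KO, and summing Csf2rb with its near copy Csf2rb2 made the fold 2.15 in place of 1.19. The binding chain exceeded the signalling chain 12.4 times in WT and 13.2 times in KO, and exceeded the sum of Csf2rb and Csf2rb2 6.74 times in WT and 13.04 times in KO.

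The Csf2ra upstream stretch is shown because it was the only one of the 9 genes' entries to hold the PU.1 letters. It covers the 250 bases before the RefSeq start at chr19:61228419-61228668 on the minus strand, and capitals mark the matches. The GENCODE gene given above starts within the last bases of this stretch.
Csf2ra: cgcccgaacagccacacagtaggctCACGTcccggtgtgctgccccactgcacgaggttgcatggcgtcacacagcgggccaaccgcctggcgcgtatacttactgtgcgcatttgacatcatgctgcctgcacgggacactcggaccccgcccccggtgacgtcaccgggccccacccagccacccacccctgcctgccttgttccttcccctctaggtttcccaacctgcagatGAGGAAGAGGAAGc

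GAGGAAG occurred in it at 14 and at 8 bases before the RefSeq start, in overlap, the first across the GENCODE start and the other inside that gene, and the reverse of ACGTG at 225. Of all promoters 10.6% held GAGGAAG and 16.6% held ACGTG. Irf8 has a pair of entries, 1 of which held ACGTG once, at 186 bases before the start. Promoter entries were matched for 4 of the 9 genes, Cebpa, Cebpb, Irf8 and Csf2ra. Not matched were Spi1, Maf, Csf1r, Csf2rb and Adgre1.

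Between receptors, the balance within a library leaned further towards Csf1r in KO. Csf1r was at 1.63 times Csf2ra in WT and at 2.11 times in KO. It was at 20.2 times Csf2rb in WT and at 27.98 times in KO. With Csf2rb and its near copy Csf2rb2 summed, these were 10.97 and 27.6 times. Summed FPKM over the 3 receptor genes was 1024 in WT and 1085 in KO. Their median difference was -0.15, with 1 higher and 2 lower in KO.

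Adgre1 (ENSMUSG00000004730, chromosome 17, 57358691 to 57483527, plus strand, 22 exons) was at 299 FPKM in WT against 239 FPKM in KO. With Csf2rb taken without Csf2rb2, this was the most negative difference of the 9. It was at -0.32 with an interval from -0.38 to -0.27, lower in KO by 1.25-fold. Its surface protein F4/80 was used to sort the cells, so the presence of the transcript in both libraries is not independent of the sort. The other sorting antigen, CD11b, is encoded by Itgam, which was at 127.9 FPKM in WT against 127.7 FPKM in KO. Csf1r and Adgre1 differed in opposite directions, so that Csf1r was at 2.06 times Adgre1 in WT and at 3.01 times in KO.

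A wide difference was measured in a paralog of Csf2rb. Csf2rb2, on chromosome 15 from 78282507 to 78305721 on the minus strand, encodes a mouse-specific chain that signals for IL-3 only. It was at 25.6 FPKM in WT against 0.396 FPKM in KO, a difference of -4.25. The estimated fragments were 713 in WT and 14 in KO, which makes the level 64.7-fold lower in KO, with a log2 ratio of -6.02 and an interval from -6.90 to -5.26. In WT, Csf2rb and Csf2rb2 were close in level, and in KO they were far apart. Csf2rb made up 54.3% of the FPKM of the pair in WT and 98.5% in KO.

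**Figure D3:**
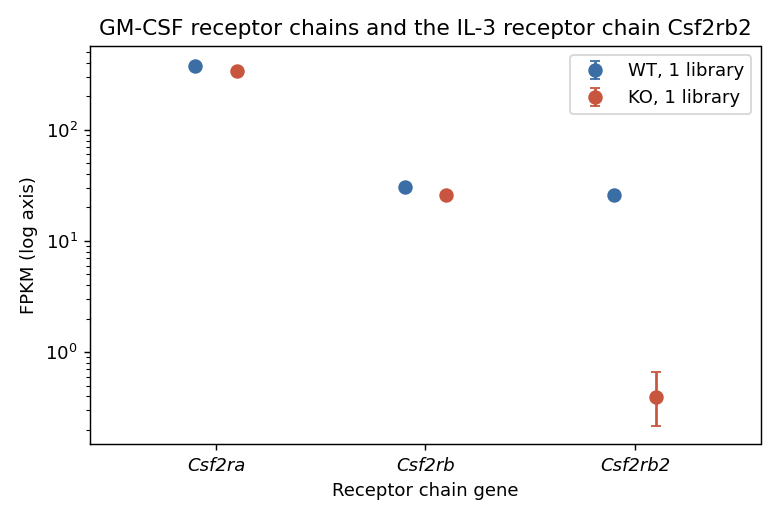
FPKM on a log axis of the GM-CSF receptor chains Csf2ra and Csf2rb and of the IL-3 receptor chain Csf2rb2 in the WT (blue) and KO (red) libraries, with counting intervals where wider than the point. Csf2ra was at 378 and 340.2 FPKM and Csf2rb at 30.5 and 25.7 FPKM, whereas Csf2rb2 was at 25.6 FPKM in WT against 0.396 FPKM in KO.

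These genes are near copies, and how the reads were shared between them bears on both values. In an alignment of the coding sequences (2688 and 2634 bases, GENCODE M21), 2503 of 2628 aligned bases were identical, or 95.2%, and the longest identical run was 242 bases. Of the 4851 stretches of 50 bases in the Csf2rb transcript, 894, or 18.4%, also occur in another gene, 892 of them in Csf2rb2. Maf shared 0.491% of its stretches with other genes, and the other 7 genes shared 0. A read from a shared stretch cannot be placed by sequence alone, so the values of Csf2rb and Csf2rb2 are uncertain.

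The most alike and the least alike stretch of 120 coding bases show how unevenly the copies differ. Coding bases 2083 to 2202 are the same in both genes, with 0 mismatches, and are printed once.
Csf2rb and Csf2rb2: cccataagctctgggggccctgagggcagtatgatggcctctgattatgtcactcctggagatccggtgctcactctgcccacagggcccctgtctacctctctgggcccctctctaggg
Coding bases 309 to 428 of Csf2rb and 312 to 431 of Csf2rb2 differ at 22 bases, which are in capitals.
Csf2rb: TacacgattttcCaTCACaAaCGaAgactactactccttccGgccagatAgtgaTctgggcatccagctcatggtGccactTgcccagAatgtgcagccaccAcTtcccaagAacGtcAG
Csf2rb2: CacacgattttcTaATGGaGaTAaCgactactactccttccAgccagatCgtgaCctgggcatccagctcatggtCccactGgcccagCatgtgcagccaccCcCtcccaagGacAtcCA

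Because of this, the pair was also summed, a choice made after its values were seen. The sum was 56.1 FPKM in WT against 26.1 FPKM in KO. It was thus 2.15-fold lower in KO, a difference of -1.08 against -0.24 for Csf2rb alone. The direction was the same for both, and the size rested on whether the paralog was counted with it. The part of read sharing in these values was not tested.

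The targeted gene was checked in the same table. Hif1a was at 30.4 FPKM in WT against 20.97 FPKM in KO, a difference of -0.52. A value for the whole gene does not show whether the floxed part was lost, and the difference lay inside the middle 50% of genes at 10 to 100 FPKM. The depth, estimated from the smallest step between FPKM values, was about 5870000 fragments for WT and 7470000 for KO. At that depth 3 fragments of a transcript of 2000 bases correspond to 0.256 FPKM in WT against 0.201 FPKM in KO, far below all 9 genes. The 12 macrophage markers in the table, which include Adgre1, Csf1r and the sorting antigens, summed to 8696 FPKM in WT against 8683 FPKM in KO, by far the highest sum of the marker lists. Most of it came from Lyz2, C1qa and Cd14, while Aif1 and Fcgr1 were over 2-fold lower and Mertk over 2-fold higher in KO. Of these 12, Cx3cr1 alone passed 3-fold, from 12.1 FPKM in WT to 2.99 FPKM in KO.

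Markers of neutrophils, in which hMRP8cre is also active and which express Cebpb, were higher in the KO library. Of 11 such markers in the table, 7 could be compared, all 7 were higher in KO, and 3 passed 3-fold, beside 51.3% of all genes higher and 13.6% at least 3-fold higher in KO, with a summed level of 181 FPKM in WT against 548 FPKM in KO. S100a8 was at 73.3 FPKM in WT against 182 FPKM in KO, and S100a9 was at 63.4 and 301.4 FPKM. Besides S100a9, those past 3-fold were the granule genes Mpo and Ngp, both listed at 0 in WT, with Mpo at 2.29 FPKM and Ngp at 2.61 FPKM in KO. At such low levels differences spread widely, and the middle 90% of genes with a mean of 1 to 10 FPKM ran from -3.02 to 3.06. The granule genes Elane, Camp, Ltf and Mmp8 were listed at 0 in both libraries. The sort for F4/80 and CD11b selects against neutrophils, which lack F4/80, but how pure it was is not known here. The part of these markers in the Cebpb value was not tested.

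Other cells gave smaller sums, and their counts past 3-fold stand beside 13.6% higher and 13.7% lower over all genes compared. Of 6 monocyte markers 1 was past 3-fold higher and 2 past 3-fold lower in KO, with sums of 44.5 and 28.7 FPKM. Among them Ly6c2 was at 9.39 FPKM in WT and listed at 0 in KO, Chil3 was at 2.10 FPKM in WT and listed at 0 in KO, and Plac8 was at 1.58 and 16.96 FPKM. Fibroblast markers summed to 43.2 FPKM in WT against 84.3 FPKM in KO, with all 5 compared higher in KO and 2 past 3-fold. Those past 3-fold were Col1a2, at 0.0948 and 4.75 FPKM, and Pdgfra, at 0.0246 and 4.98 FPKM. With at least 1 FPKM required in both libraries, 0 fibroblast markers passed. Dendritic cells also express Irf8, and their markers summed to 167 FPKM in WT and 177 in KO, mostly from Cd209a and Batf3. Cd209a was at 122 and 131 FPKM, and Batf3 at 40.5 and 28.7 FPKM. Of 5 compared, 3 were higher and 2 lower in KO, with 2 past 3-fold, both higher. These were Siglech, at 1.42 and 8.31 FPKM, and Zbtb46, listed at 0 in WT but at 9.45 FPKM in KO. Xcr1 was lower, at 1.65 and 0.0588 FPKM, and passed 3-fold on the plain FPKM ratio. Flt3 was at 0 and 0.0362 FPKM, and Clec9a was listed at 0 in both. Eosinophil markers summed to 6.50 FPKM in WT and 33.1 in KO, and both compared passed 3-fold, higher in KO. Of these, Alox15 was at 6.50 and 25.7 FPKM and Ccr3 was listed at 0 in WT but reached 7.45 FPKM in KO, while Epx, Prg2, Siglecf and Il5ra were listed at 0 in both libraries. Adipocyte, endothelial, mast cell, B cell and T cell lists stayed under 20 FPKM in sum, and Adipoq, Plin1 and Retn were listed at 0 in both.

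The families of the 9 genes and the pathways around them were described next. Over these lists of relatives, ligands, signalling genes and known targets, 118 genes were compared and 12 of them, or 10.2%, passed 3-fold, 7 higher and 5 lower in KO. Over all genes compared the share was 27.3%. At a mean of 10 to 100 FPKM, 4 of 59 list genes (6.78%) passed, beside 14.6% of all genes of that level, and at 100 FPKM or more 0 of 39 passed, beside 2.14%. With at least 1 FPKM required in both libraries, 3 of 106 list genes (2.83%) and 876 of 7586 genes in all (11.5%) passed.

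Of 13 ETS relatives of Spi1, 12 were compared, 3 passed 3-fold and all 3 had the higher value in KO, with a median of 0.38. All 3 were below 1 FPKM in WT, and 0 passed with at least 1 FPKM required in both libraries. Ets1 was listed at 0 in WT but reached 2.58 FPKM in KO. Gabpa was at 0.914 and 6.92 FPKM, a difference of 2.05. Spic, which encodes the PU.1-related factor of iron-recycling red pulp macrophages, was at 0.294 FPKM in WT, on an estimated 3 fragments, and at 22.7 FPKM in KO. The abundant relatives lay closer together. Ets2 was at 114 and 122 FPKM, Etv3 at 73.1 and 88.3 FPKM, and Fli1, a partner of PU.1 in blood cells, at 55.2 FPKM in WT against 36.9 FPKM in KO.

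Of the C/EBP family and its regulators, 5 of 8 were compared, and the KO value exceeded WT in all 5, with a median of 0.64. Of these, 2 passed 3-fold, and 1 did with at least 1 FPKM required in both libraries. Cebpd, which encodes C/EBPδ, was at 4.40 FPKM in WT against 19.7 FPKM in KO, a 4.48-fold difference on an estimated 97 and 552 fragments. Cebpz was at 0.846 and 8.48 FPKM. Trib1, whose product targets C/EBPα for degradation, was at 88.1 FPKM in WT against 125 FPKM in KO, a difference of 0.50. Ddit3, which encodes the stress-induced relative CHOP, was at 39.7 and 62.6 FPKM, and Cebpg at 13.9 and 17.4 FPKM. These 5 include the regulator gene Trib1, and of all genes compared 51.3% were higher in KO.

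None of 7 compared IRF relatives passed 3-fold. The most abundant IRF genes were Irf5, at 105 and 109 FPKM (0.06), and Irf1, at 114 and 92.2 FPKM (-0.30). Irf7 was at 37.8 and 55.2 FPKM. The widest difference of the list was in Irf9, which encodes the DNA-binding subunit of the interferon-activated complex ISGF3, at 13.9 and 39.3 FPKM (1.44). Of the small MAF genes, Maff was at 96.8 FPKM in WT against 52.3 FPKM in KO, and Mafk was at 37.5 and 103 FPKM. These small MAF genes therefore lay in opposite directions, at -0.87 and 1.44. Mafg, also a small MAF gene, was higher in KO, at 9.49 and 23.6 FPKM (1.23).

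Among 17 compared transcription factors of macrophages outside these families, 3 passed 3-fold. Pparg, the lipid-sensing nuclear receptor of fat-laden and alveolar macrophages, was at 36.4 FPKM in WT against 7.78 FPKM in KO, a difference of -2.09. Nr1h3, which encodes the oxysterol receptor LXRα, was at 12.9 and 2.97 FPKM, a difference of -1.81. Both encode nuclear receptors of lipid metabolism and both were lower in KO. Myb, a gene of precursors, was listed at 0 in WT but reached 2.14 FPKM in KO. The most abundant were Egr1 at 722 and 904 FPKM, Klf4 at 276 and 179 FPKM, and Id2 at 158 and 263 FPKM.

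**Figure D4:**
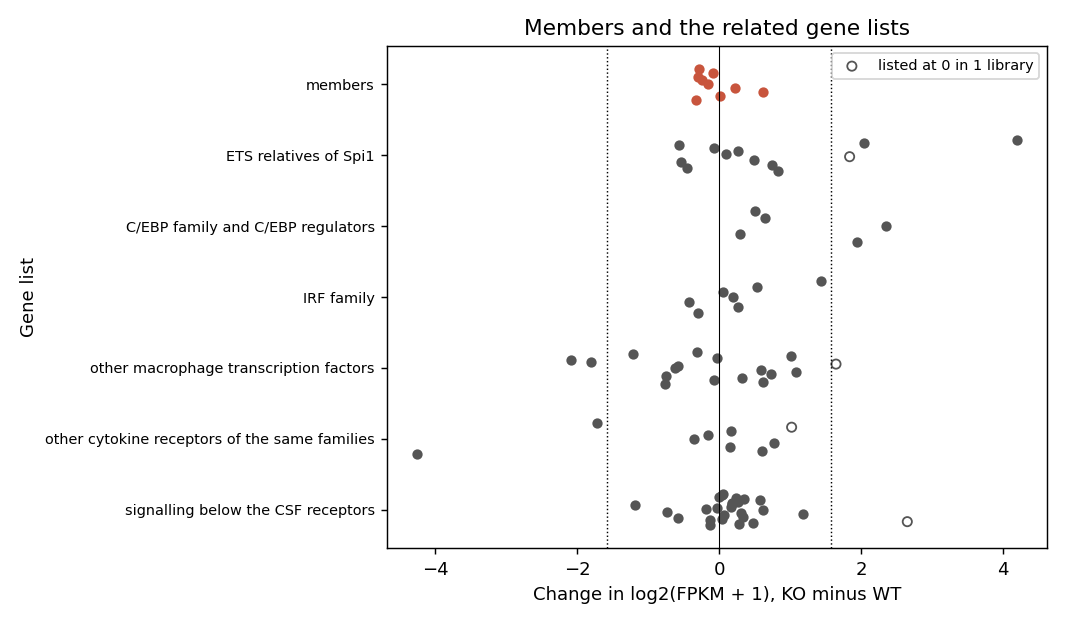
Difference in log2(FPKM + 1), KO minus WT, of each compared gene in lists of relatives, other transcription factors, receptors and signalling genes, with the 9 genes in red, open points for genes listed at 0 in 1 library and dotted lines at 3-fold. The 9 genes lie between -0.32 and 0.62, and the point farthest to the left is Csf2rb2 at -4.25.

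The ligands of the receptors were listed at or near 0. Csf2, Il3, Csf3 and Il34 were listed at 0 in both libraries. Csf1, which encodes M-CSF, was listed at 0 in WT but reached 1.47 FPKM in KO, and Il5 at 0 and 0.281 FPKM. The 3 receptor genes themselves were at 25.7 FPKM or more. A listed 0 in such a table can be a failed estimate and does not show that a transcript was absent.

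Of 9 compared receptors of the same families, 2 passed 3-fold, Csf2rb2 and Pdgfrb, and both were lower in KO. Both were below 1 FPKM in KO, and 0 passed with at least 1 FPKM required in both libraries. Pdgfrb, a relative of Csf1r found on stromal cells, was at 2.998 and 0.216 FPKM. Il3ra, whose chain pairs with those of Csf2rb and Csf2rb2, was at 26.1 FPKM in WT against 23.4 FPKM in KO, a difference of -0.15, far from that of Csf2rb2. Il2rg was at 102 and 79.1 FPKM, Il4ra at 81.5 and 92.1 FPKM, and Il10ra at 64.8 and 72.3 FPKM.

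Signalling genes below the receptors were measured throughout. All 26 were compared, 19 were higher and 7 lower in KO, with a median of 0.17, beside 51.3% of all genes higher. Of the 26, 1 passed 3-fold, and 0 did with at least 1 FPKM required in both libraries. The gene past 3-fold was Cish, a feedback inhibitor induced by STAT5, listed at 0 in WT but at 5.29 FPKM in KO. Stat5a was at 16.02 and 19.1 FPKM and Stat5b at 7.05 and 7.07 FPKM. Jak2, the kinase bound to the signalling chain, was at 9.58 FPKM in WT against 23.1 FPKM in KO, a difference of 1.19. Ptpn6, which encodes the inhibitory phosphatase SHP-1, was at 55.5 and 23.97 FPKM, a difference of -1.18. The most abundant were Tyrobp at 1792 and 1858 FPKM, Stat3 at 125 and 160.3 FPKM, and Grb2 at 125 and 129 FPKM.

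**Figure D5:**
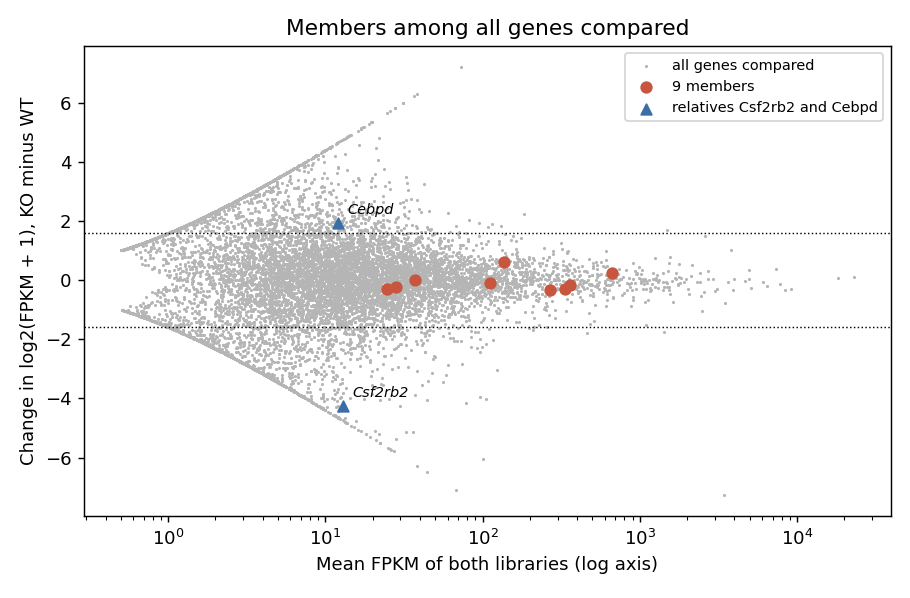
Difference in log2(FPKM + 1), KO minus WT, against mean FPKM of both libraries (log axis) for all 10297 genes compared (grey), with the 9 genes in red, the relatives Csf2rb2 and Cebpd as blue triangles and dotted lines at 3-fold. The spread narrows as the level rises, and the 9 genes lie between the dotted lines, from -0.32 for Adgre1 to 0.62 for Cebpb.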

How the data were processed

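Poly(A) RNA of sorted ATMs was sequenced as 1 WT and 1 KO library. The authors deposited 1 table of FPKM values, with CASAVA 1.8.2, TopHat2 2.0.9, Cufflinks 2.2.1 and mm9 named in the submitters' processing notes. Annotation, filters and use of strand are not given in the sources used here. The column named as mutant was taken as KO, the only other genotype.

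Of 20749 rows, 401 repeats were dropped and 18 further rows of a repeated identifier were summed. Identifiers were matched to symbols for 20035 of 20330 (98.5%). Genes reaching an FPKM of 1 in either library were compared as log2(FPKM + 1). FPKM is not a count, so no count model was fitted, and no p-value was computed. Fragments behind a value were estimated from the FPKM step and the longest coding transcript in GENCODE M21, and intervals are exact binomial (Clopper-Pearson, 95%). Positions are those of GRCm38, which differs from mm9, and protein sequences were not used here. Analyses used Python 3.11.15, pandas 2.3.3, SciPy 1.17.1 and Biopython 1.88. Only the depth estimate and the 3-fold threshold were tested on simulated data, which held counting noise and no other error.

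The 9 genes and the lists were chosen with earlier results of these data known. From each list, genes past 3-fold and the 3 highest by mean FPKM were named, besides Csf2rb2, Cebpd, Csf1, Il34, Csf2 and Hif1a. Some genes of the rule are not reported here. Cell type markers are given by counts and sums, with single genes as examples. These examples and Irf9, Mafg, Jak2, Ptpn6, Stat5a, Stat5b and Il3ra were chosen after their values were seen. Alternatives covered the pseudocount, the filter, scaling, repeated identifiers, the threshold and, after seeing the data, summing Csf2rb with Csf2rb2.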

Additional observations from a re-analysis of the deposited data

How the results depend on the processing

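Without replicates, the values bear no biological error, and genes below about 10 FPKM spread widely between the libraries. Of the settings tried, 6 can move the value of a gene among the 9 (pseudocount, scaling and the plain FPKM ratio), and under these 6 the genes stayed at 3 higher and 6 lower in KO. Their median ranged from -0.17 (centred on the median change) to -0.11 (scaled to the same summed FPKM). Of the 54 values they gave, 53 lay within the counting interval, and Csf1r was outside it at 0.27 when scaled to the same summed FPKM. Csf2rb was at -1.08 when summed with Csf2rb2. The other filters and the handling of repeated identifiers leave these values as they are by construction.

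The number of all genes past 3-fold was 2815, and that of genes in the related lists was 12. With an FPKM of at least 1 required in both libraries they were 876 and 3, and with a mean of at least 5 they were 1244 and 5. At 2-fold they were 4694 and 26, and at 1.5-fold 6403 and 42, with 1 of the 9 genes, Cebpb. With Csf2rb and Csf2rb2 summed, a choice made after seeing the data, 1 of the 9 genes (Csf2rb) passed 2-fold, beside 4694 of all genes and 25 in the lists. No paired analysis was possible because only 1 library of either kind was sequenced.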

Other observations

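Genes that depend on the 9 genes were also described, from a list of known targets. Of the genes known to be driven by PU.1 in macrophages, 19 were compared and none passed 3-fold, with a median of 0.02, 10 higher and 9 lower in KO. Most of them have a mean of 100 FPKM or more, where only 2.14% of all genes passed 3-fold, so this count is near the background. The most abundant were Lyz2, which encodes lysozyme, at 3936 FPKM in WT against 4080 FPKM in KO, Fcer1g at 2927 and 2965 FPKM, and the lipopolysaccharide co-receptor gene Cd14 at 1060.4 and 1095 FPKM. The widest differences were in Aif1, at 205 and 79.3 FPKM (-1.36), and the Fc receptor gene Fcgr1, at 49.3 and 21.9 FPKM (-1.14). Aif1 and Fcgr1 were singled out after their values were seen.

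Among 5 compared adhesion receptors related to Adgre1, Adgrl2 passed 3-fold, at 4.91 FPKM in WT against 0.683 FPKM in KO. With at least 1 FPKM required in both libraries, 0 passed. Adgre5, which encodes CD97, was the most abundant, at 208 and 220.4 FPKM, Adgrg1 was at 17.7 and 22.96 FPKM, and Adgrg6 was at 8.85 and 6.03 FPKM.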
